A study of Mus musculus with 6 samples.

Results

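The gene set described here consists of 4 transcription factors of the ATF4 stress pathway (Atf4, Atf3, Atf5 and Ddit3) and 6 genes known as targets of that pathway (Asns, Chac1, Trib3, Sesn2, Ddit4 and Slc7a11). The 10 genes were taken by symbol from the deposited tables of 56847 Ensembl gene IDs. All 10 were found and all 10 passed the filter on low counts. A second ID that carries the symbol Ddit3 (ENSMUSG00000116429) had 0 counts in all 6 libraries, so Ddit3 below is ENSMUSG00000025408.

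Messenger RNA of mouse liver was sequenced in 3 libraries from a normal diet and 3 libraries from CDAHFD, a high-fat diet with defined amino acids and without choline that is used in rodents to induce steatohepatitis. Not given in the sources used here are strain, sex, age, genotype and time on the diet, and the labels name no other treatment in either group. Whether the libraries come from different mice is not stated, so the tests measure only the spread between these samples, which may be technical. The comparison addresses mitochondrial function and lipid metabolism, per the design text, and the series title names ALDH18A1.

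ATF4 is a basic leucine zipper factor at the centre of the integrated stress response. Kinases that sense amino acid shortage, unfolded protein in the endoplasmic reticulum, double-stranded RNA or haem deficiency phosphorylate the initiation factor eIF2, which lowers protein synthesis in general but favours translation of the Atf4 mRNA. ATF4 then binds, often with a C/EBP partner, to composite elements near genes of amino acid synthesis and uptake and of stress signalling. Because ATF4 is controlled largely at translation, the level of its mRNA is not a measure of its activity.

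Levels are given in CPM, the counts of a gene scaled to a common library total after TMM (trimmed mean of M values) scaling, and, where genes are compared with each other, in the deposited TPM, which also divide by gene length. A change is the log2 ratio of CDAHFD to normal diet ± its standard error, with 3 libraries per diet. A gene is called where the adjusted p of edgeR's quasi-likelihood test over all genes tested is under 0.05.

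The promoter sequences of the genes with an upstream match to the composite element are shown first, because the genes that carry it did not all move on the diet. The search used the letters TGATGNAA on both strands (the core of the C/EBP-ATF response element, here CARE) in RefSeq promoter windows of build GRCm38.p6, which run from 250 bases before to 50 bases after a transcription start. The windows come from another build than the GRCm39 named for the counts and were matched by symbol. In each line the sequence is written 5′ to 3′ on the strand of the gene, and capitals mark the match. The 4 stretches are chr3:50443628-50443704 (minus strand), chr1:191183411-191183468 (minus strand), chr6:7693210-7693257 (minus strand) and chr2:119351024-119351081 (plus strand), in the order printed.
Slc7a11: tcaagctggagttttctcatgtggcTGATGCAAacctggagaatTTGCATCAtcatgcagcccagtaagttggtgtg
Atf3: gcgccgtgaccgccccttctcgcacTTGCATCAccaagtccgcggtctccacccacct
Asns: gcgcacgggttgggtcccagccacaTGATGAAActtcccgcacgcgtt
Chac1: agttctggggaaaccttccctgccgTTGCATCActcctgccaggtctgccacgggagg

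Slc7a11 held 2 matches, one on each strand, whose first bases lie at -66 and -47 from the start. The matches began at -110 in Atf3, at -23 in Asns and at -193 in Chac1, and Trib3 held one just after its start, at 15. Thus 5 of the 10 genes had a match, in 5 of their 11 windows, against 1304 of 32851 windows of the same length (3.97%). The genes were chosen as factors and known targets of the ATF4 pathway, so this share is not a result of these data. Of the 5 genes with a match, Slc7a11, Atf3, Asns and Trib3 were called higher on CDAHFD and Chac1 was not called. Atf5 and Sesn2 were called higher and had no match in their windows, and Atf4, Ddit3 and Ddit4 were not called and had none. Of all genes tested, 28.5% were called higher. So few genes, chosen as known factors and targets, cannot show whether calls go with a match, and this was not tested. The antioxidant response element, searched as TGACNNNGC, matched in Asns and Sesn2 and in 12.4% of all windows. The cyclic AMP response element TGACGTCA matched in none of the 11 windows of these genes and in 1.79% of all windows. These are matches of letters in a short window only.

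**Figure D1:**
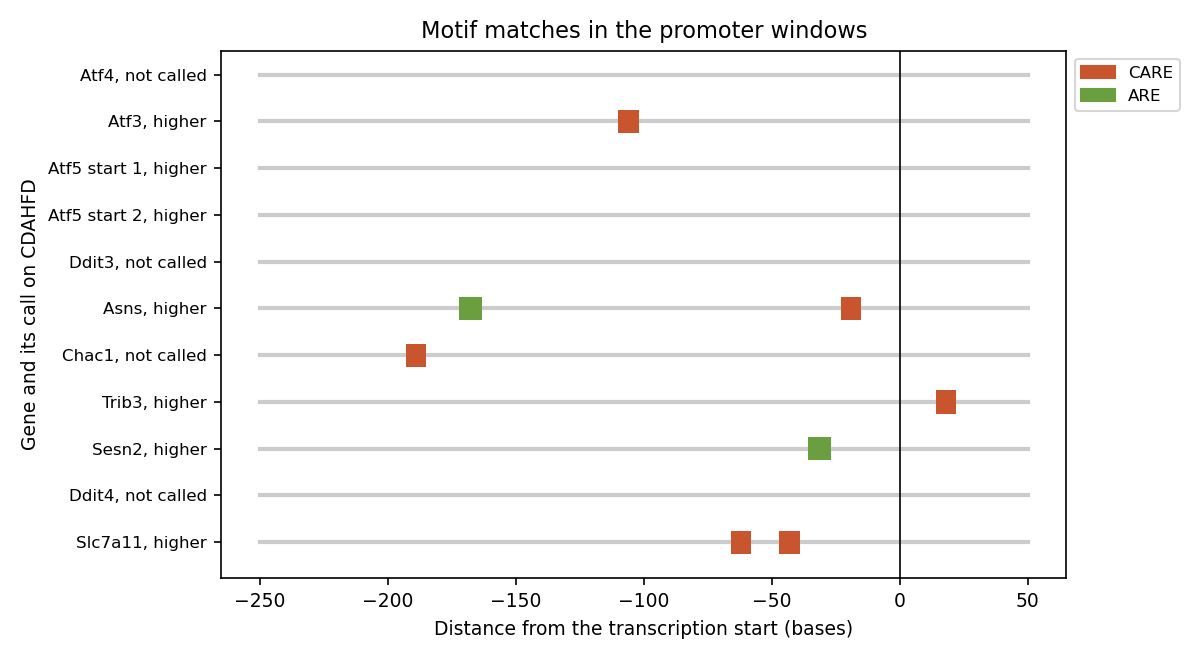
Matches of CARE (TGATGNAA) and ARE (TGACNNNGC) in the promoter windows of the 10 genes, by distance from the transcription start in bases. Atf5 has 2 annotated starts, grey lines mark the searched windows, and row names give the call on CDAHFD. Slc7a11 carries 2 CARE matches, and the match of Chac1, which was not called, lies farthest upstream at -193.

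On CDAHFD, 6 of the 10 genes rose (4 without CDAHFD replicate 3) and 0 fell by edgeR with TMM and the filter on low counts. There Atf4 was lower at an unadjusted p of 0.0272. Its call depended on the settings: DESeq2 and edgeR with RLE scaling called it lower, and edgeR with libraries scaled to hepatocyte markers called it higher. Slc7a11, which encodes the cystine importer subunit xCT, rose from near 0 to 4.30 ± 0.183 CPM, and Atf3, a stress-induced repressor and activator of the ATF family, rose from 0.558 ± 0.146 to 23.5 ± 5.97 CPM (SD, n = 3). Asns (asparagine synthetase), Atf5, Trib3 and Sesn2 rose less, by 2.27 to 0.35 on the log2 scale. Ddit3 (CHOP), Chac1 and Ddit4, often used as read-outs of the same response, were not called. Of all 14215 genes tested, 28.5% were called higher and 23.5% lower (52.1% in either direction), so a call by itself was common on this diet. The median change of the 10 genes was 0.49, against 0.01 over all genes tested.

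Atf4 had 90.6, 74.4 and 99.0 CPM in the normal diet libraries and 77.7, 68.1 and 66.4 CPM in the CDAHFD libraries. The groups overlapped, since CDAHFD replicate 1 lay above normal diet replicate 2. Its change was -0.31 ± 0.12 (95% interval -0.59 to -0.04, adjusted p = 0.0519), just short of the threshold. It was called lower with RLE scaling, with DESeq2 and without a filter on low counts (adjusted p = 0.0353 to 0.0443), and without normal diet replicate 2 (-0.43, adjusted p = 0.00889) or CDAHFD replicate 1 (-0.42, adjusted p = 0.0376). The value depended on the scaling: it was 0.01 with total counts, 0.34 with libraries scaled to hepatocyte markers, where it was called higher (adjusted p = 0.0475), and 0.06 with deposited TPM, as log2(TPM + 0.1). Relative to the median of all genes it stood at -0.33 with TMM, total counts and hepatocyte markers and at -0.31 with TPM.

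Atf3 had 14, 12 and 8 counts on normal diet and 513, 544 and 780 counts on CDAHFD. The groups were far apart, with the CDAHFD libraries between 19.5 and 30.4 CPM and the normal diet libraries between 0.4 and 0.688 CPM. The change was 5.38 ± 0.26 (adjusted p = 7.67e-08), and 53 of the genes tested had a larger one.

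Atf5, the closest relative of ATF4 and a factor linked to mitochondrial stress, was the most abundant of the 10 genes. It had 123, 112 and 145 CPM on normal diet and 297, 205 and 286 CPM on CDAHFD, without overlap, and CDAHFD replicate 2 was the lowest of its group. The change was 1.05 ± 0.15 (adjusted p = 0.000182). In the annotation used for names, Atf5 overlaps Nup62 and Il4i1 on the opposite strand. The kit keeps the strand, but the strand setting of the counting is not given, so reads in the shared stretch cannot be assigned with certainty. Nup62, which encodes a nuclear pore protein, had 230 to 288 counts on normal diet and 365 to 421 counts on CDAHFD (0.23 ± 0.13, adjusted p = 0.17). Il4i1 had 0 to 2 counts in any library.

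Ddit3, which encodes the pro-apoptotic factor CHOP, had 5.16, 3.53 and 3.05 CPM on normal diet and 3.73, 5.19 and 4.64 CPM on CDAHFD. The groups overlapped and the change was 0.21 ± 0.23 (95% interval -0.29 to 0.71, adjusted p = 0.467). With libraries scaled to hepatocyte markers it was 0.87 (adjusted p = 0.00169), and with log2(TPM + 0.1) 0.59 (adjusted p = 0.0361). Both values are 0.21 above the median gene of their setting, against 0.20 with TMM. Ddit3 overlaps Mars, the methionyl-tRNA synthetase gene, on the opposite strand. Mars had 1100 to 1393 counts against 61 to 145 counts for Ddit3, and was called lower with TMM (-0.33 ± 0.11, adjusted p = 0.0294). The part of Mars reads in the Ddit3 counts was not tested. Atf3, Sesn2 and Slc7a11 also overlap annotated genes with Gm symbols, for Sesn2 and Slc7a11 also on the same strand.

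Among the targets, Slc7a11 changed most. It had 1, 1 and 0 counts on normal diet and 103, 126 and 108 counts on CDAHFD. With 2 counts in all on normal diet, the ratio of the summed counts over scaled totals was 131, with a 95% exact binomial interval of 35.9 to 1084 that covers counting error only. The fitted change was 6.81 ± 0.43 (adjusted p = 3.50e-07), a value that leans on edgeR's prior count. On the log2(TPM + 0.1) scale the change was 3.33, since a pseudocount understates the change of a rare transcript. It remained a rare transcript on CDAHFD at 0.963 ± 0.0181 TPM, the lowest level of the 10 genes on both diets. The CDAHFD libraries lay close together, with a coefficient of variation of 4.26%.

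Asns, which makes asparagine from aspartate and glutamine, had 5.40, 1.57 and 2.50 CPM on normal diet and 13.6, 16.0 and 16.3 CPM on CDAHFD. The groups did not overlap, and the spread was wide on normal diet, where replicate 1 was highest, and narrow on CDAHFD (coefficients of variation of 63.4% and 9.84%). The change was 2.27 ± 0.32 (adjusted p = 0.000126), and it was 2.90 without normal diet replicate 1.

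Trib3 encodes a pseudokinase that ATF4 and CHOP induce and that restrains AKT and ATF4. It had 19.5, 14.8 and 16.3 CPM on normal diet and 27.1, 19.7 and 31.7 CPM on CDAHFD. The groups touched without overlap, at 19.5 and 19.7 CPM. The change was 0.63 ± 0.17 (adjusted p = 0.0101), and without CDAHFD replicate 3 it was 0.43 and no longer called (adjusted p = 0.069).

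Sesn2, a sestrin that senses leucine and restrains mTORC1, had 13.4, 14.6 and 14.3 CPM on normal diet and 18.4, 17.9 and 17.5 CPM on CDAHFD. This was the least variable of the 10 genes within a diet, with coefficients of variation of 4.33% and 2.59%, and the groups did not overlap. The change was small, 0.35 ± 0.11 (adjusted p = 0.0235). The call was lost without a filter on low counts (adjusted p = 0.0611) and without normal diet replicate 1 or any 1 CDAHFD library (adjusted p = 0.0538 to 0.104).

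Chac1, a glutathione-degrading enzyme, had 7.17, 4.65 and 5.80 CPM on normal diet and 4.54, 7.33 and 2.96 CPM on CDAHFD. The highest and the lowest of the 6 values were both CDAHFD libraries, and the change was -0.24 ± 0.29 (95% interval -0.88 to 0.39, adjusted p = 0.507). Its sign turned with total counts, TPM and hepatocyte markers, at 0.07, 0.04 and 0.40, none of them called. Without CDAHFD replicate 2 the change was -0.69 (adjusted p = 0.0513).

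Ddit4 encodes REDD1, an inhibitor of mTORC1 that also responds to glucocorticoids, fasting and hypoxia. It had 18.7, 7.30 and 10.9 CPM on normal diet and 17.5, 11.2 and 8.54 CPM on CDAHFD, a wide spread on both diets (coefficients of variation of 47.3% and 37.2%). The groups overlapped throughout, with a change of 0.01 ± 0.32 (95% interval -0.68 to 0.71, adjusted p = 0.98). It was called only with libraries scaled to hepatocyte markers, at 0.69 (adjusted p = 0.013), which is 0.02 above the median gene in that scaling.

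For each of the 6 genes that rose, the lowest CDAHFD library was above the highest normal diet library. Among all genes tested, 32.2% were higher without overlap in this way. The other 4 genes overlapped between the diets. Within normal diet, replicate 1 was the highest of its group for Atf3, Ddit3, Asns, Chac1, Trib3 and Ddit4, while replicate 3 was the highest for Atf4 and Atf5.

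**Figure D2:**
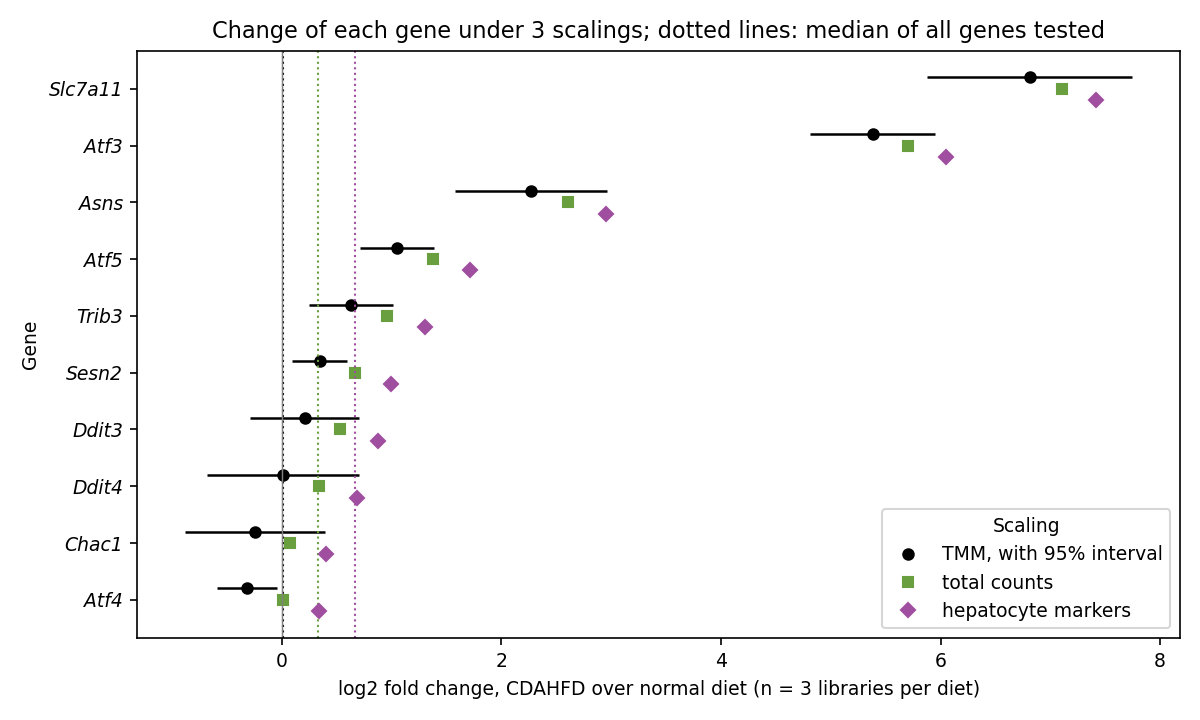
Log2 fold change of the 10 genes, CDAHFD over normal diet, with libraries scaled by TMM (circles, lines are 95% intervals), by total counts (squares) and by hepatocyte markers (diamonds). Dotted lines give the median of all genes tested in each scaling. Each point of Slc7a11, Atf3, Asns and Atf5 lies to the right of the median of its own scaling by 1.04 or more.

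The scaling moved all genes together. The median of all genes tested was 0.01 with TMM, 0.34 with total counts and 0.67 with hepatocyte markers. Higher genes made up 54.8%, 84.5% and 95.8% of all calls in these scalings. Of all genes tested, 28.5%, 44.0% and 66.6% were called higher, and of the 10 stress genes 6, 6 and 9. Measured from that median, Slc7a11, Atf3, Asns, Atf5, Trib3 and Sesn2 stood at 6.80, 5.37, 2.26, 1.04, 0.62 and 0.33 with TMM. With hepatocyte markers they stood at 6.75, 5.38, 2.29, 1.05, 0.64 and 0.33. Scaling to hepatocyte markers takes the mean of 9 markers as equal between the diets. Of these 9 markers, 8 were called lower with TMM and 5 with total counts, and whether they respond to the diet was not tested.

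A comparison within each library avoids the scaling, but each ratio also carries the change of Atf4 itself, which was -0.31 with TMM. With TMM, Atf5, Trib3, Sesn2 and Ddit3 themselves changed by 1.05, 0.63, 0.35 and 0.21, less than their ratios to Atf4 below. Counts of each gene were divided by the Atf4 counts of the same library. Atf5 stood at 135%, 150% and 146% of Atf4 on normal diet and at 382%, 300% and 431% on CDAHFD. Asns stood at 5.97%, 2.11% and 2.53% on normal diet and at 17.5%, 23.5% and 24.6% on CDAHFD. For Atf3, Atf5, Asns, Trib3 and Sesn2 every CDAHFD ratio lay above every normal diet ratio, with log2 differences of 5.71, 1.35, 2.77, 0.92 and 0.65. Each had a two-sided exact permutation p of 0.1, the smallest that 3 libraries against 3 allow, and 0.16 after adjustment over the 8 ratios, so none could pass 0.05. Ddit3, Ddit4 and Chac1 overlapped, with differences of 0.54, 0.36 and -0.02 (exact permutation p = 0.2, 0.4 and 0.9). Slc7a11 was left out because 1 library had 0 counts.

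**Figure D3:**
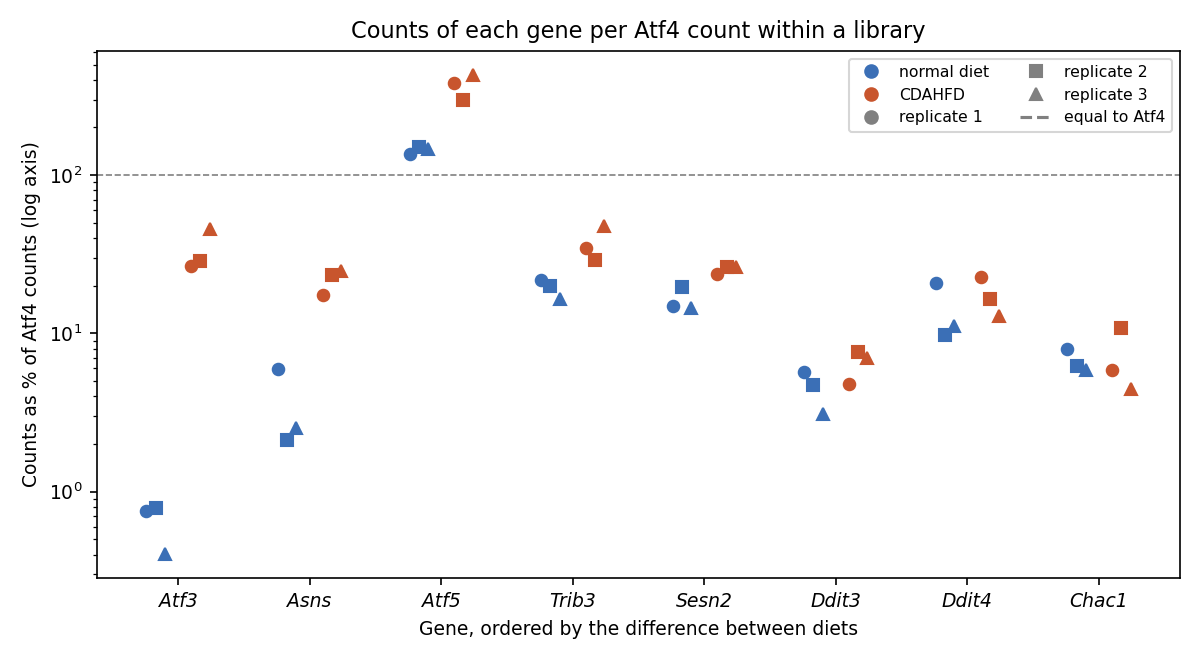
Counts of 8 genes as a percentage of the Atf4 counts of the same library, on a log axis, with 1 symbol per library and genes ordered by the difference between diets. The dashed line marks equality with Atf4. Atf5 lies above it on both diets, and Atf3 moves from at most 0.791% to at least 26.7%.

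In TPM, which allows genes to be compared, the order on normal diet was led by Atf5 (153 ± 15.9 TPM) and Atf4 (90.0 ± 9.19 TPM). Trib3, Ddit4, Sesn2, Chac1, Ddit3, Asns, Atf3 and Slc7a11 followed, from 19.2 ± 2.14 down to 0.00577 ± 0.00501 TPM. Neighbours in this order overlapped between Trib3 and Ddit4, Ddit4 and Sesn2, Sesn2 and Chac1, and Ddit3 and Asns. On CDAHFD the order was Atf5 (413 ± 89.0 TPM), Atf4 (93.7 ± 8.79 TPM), Trib3, Atf3 (34.3 ± 9.58 TPM), Ddit4, Asns (17.5 ± 1.76 TPM), Sesn2, Chac1, Ddit3 and Slc7a11. There, the libraries separated Atf5 from Atf4, Atf4 from Trib3, Sesn2 from Chac1, and Ddit3 from Slc7a11, and all other neighbours overlapped. The genes with the 3 lowest levels on normal diet, Slc7a11, Atf3 and Asns, had the 3 largest changes. The 10 genes summed to 278 to 328 TPM on normal diet and 529 to 722 TPM on CDAHFD, and Atf5 took 46.1% to 52.3% and 58.6% to 64.8% of these sums.

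**Figure D4:**
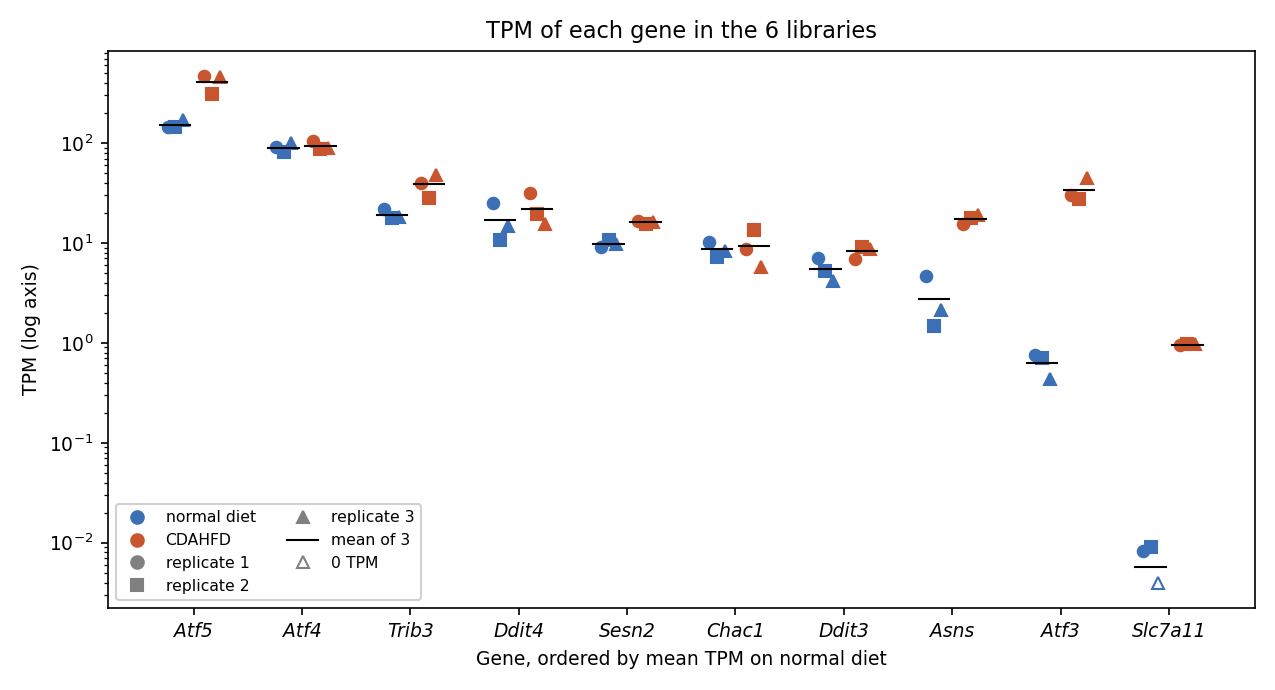
Deposited TPM of the 10 genes in each library, on a log axis, with bars for the mean of 3 libraries and an open symbol for the library listed at 0. Genes are ordered by their mean on normal diet. Atf5 leads on both diets, and Slc7a11 remains lowest at about 0.963 TPM on CDAHFD.

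The other genes of the pathway were followed in 9 lists with 109 tested members, of which 32 were called higher (29.4%) and 32 lower (29.4%), against 28.5% and 23.5% of all genes tested. The lists moved in different directions with TMM, and since the scaling moves all genes, each count is given with those under total counts and hepatocyte markers. These are to be read against all genes tested, of which 44.0% were higher and 8.07% lower with total counts, and 66.6% and 2.9% with hepatocyte markers. With log2(TPM + 0.1), 45.3% were higher and 6.31% lower.

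The machinery upstream of ATF4 had a median log2 change that, relative to the median of all genes, was -0.15 with TMM and total counts, -0.16 with hepatocyte markers and -0.12 with TPM. Among 17 genes of the eIF2 kinases, phosphatase adaptors and subunits of eIF2 and its exchange factor eIF2B, 1 rose and 6 fell (median -0.14; 6 higher and 1 lower with total counts, 11 and 0 with hepatocyte markers). Ppp1r15b, which encodes the constitutive phosphatase adaptor, fell from 141 ± 8.77 to 93.0 ± 3.28 CPM (-0.60 ± 0.10). The exchange factor gene Eif2b1 fell by 0.56 ± 0.11 and Dnajc3, an inhibitor of eIF2 kinases, by 0.50 ± 0.12. Impact, which restrains the amino acid sensing kinase GCN2, rose by 0.61 ± 0.17, a call lost without CDAHFD replicate 1 (adjusted p = 0.057). With hepatocyte markers Ppp1r15b, Eif2b1 and Dnajc3 turned to 0.06, 0.10 and 0.16, not called. Eif2b1 and Dnajc3 were not called with total counts, and none of these 3 with TPM.

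In 13 genes of C/EBP and ATF/CREB factors, among them partners of ATF4, 1 rose and 4 fell (median -0.30; 3 higher and 1 lower with total counts, 7 and 0 with hepatocyte markers). Crebl2 fell by 0.70 ± 0.10, Cebpa, a hepatocyte factor, by 0.46 ± 0.11 and Atf1 by 0.44 ± 0.13. Jdp2, a bZIP repressor, rose by 0.75 ± 0.20. With hepatocyte markers Cebpa and Atf1 turned to 0.19 and 0.21, and Crebl2 stood at -0.04, all not called. Cebpa and Atf1 were not called with total counts or TPM either. Without normal diet replicate 2 Atf1 was not called (adjusted p = 0.0526), and without CDAHFD replicate 1 Jdp2 was not (adjusted p = 0.0539). Nfe2l1, which encodes a factor of proteasome genes, was at -0.04 ± 0.10 (adjusted p = 0.794) but was called higher with total counts, TPM and hepatocyte markers, at 0.29, 0.33 and 0.62.

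Synthesis of serine, one-carbon units and proline held the highest median of the 9 lists. Of 9 genes 7 rose and 0 fell, with a median of 2.88 (7 and 0 with total counts, 9 and 0 with hepatocyte markers). The median was 1.34 with log2(TPM + 1). In sum, with the abundant Shmt2 included, the 9 genes had 257 to 277 CPM on normal diet and 246 to 275 CPM on CDAHFD. Aldh18a1, the gene in the series title, which encodes the first enzyme of proline synthesis from glutamate, rose by 2.88 ± 0.25 from 0.922 ± 0.253 to 6.80 ± 1.24 CPM. The mitochondrial folate dehydrogenase gene Aldh1l2 rose by 4.24 ± 0.48 (3.78 without normal diet replicate 1, 5.58 without replicate 2). Psat1 and Phgdh of serine synthesis rose by 3.40 ± 0.29 and 3.16 ± 0.51. Phgdh rose by 2.58 without normal diet replicate 2 and by 3.56 without replicate 3. Pycr1, the last step of proline synthesis, rose by 3.04 ± 0.45 (2.53 without normal diet replicate 2, 3.80 without replicate 3). Mthfd1l rose by 1.16 ± 0.20. Aldh1l2, Phgdh and Pycr1 were near 0 on normal diet, at mean levels of 0.197, 0.198 and 0.298 CPM. The abundant Shmt2, which splits serine in mitochondria, was at 254 ± 9.23 and 211 ± 21.2 CPM and was not called (-0.27 ± 0.11, adjusted p = 0.0602). It was called lower with RLE scaling, DESeq2 and limma-voom and without CDAHFD replicate 2 (adjusted p = 0.0201 to 0.0485). Its sign turned under total counts (0.06), TPM (0.10) and hepatocyte markers (0.38, called).

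Amino acid transporters known as ATF4 targets rose in 5 of 7 tested cases and fell in 1 (median 0.52; 6 and 1 with total counts and with hepatocyte markers). The neutral amino acid exchangers Slc1a5 and Slc1a4 and the cationic transporter Slc7a1 rose by 2.25 ± 0.22, 2.17 ± 0.23 and 2.19 ± 0.22, from 1.94, 1.48 and 1.23 CPM. Slc38a2, a sodium-coupled neutral transporter with the list's highest CPM, fell from 253 ± 53.5 to 102 ± 11.7 CPM (-1.32 ± 0.15). Slc3a2, the heavy chain with which xCT pairs, rose by 0.40 ± 0.13. That call was lost without normal diet replicate 2 or 3 or CDAHFD replicate 1 or 3 (adjusted p = 0.0559 to 0.132). Slc7a3, with 0 counts on normal diet, was not tested.

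Other stress targets split, with 7 of 16 higher and 5 lower (median 0.40; 10 and 2 with total counts, 11 and 1 with hepatocyte markers). Nupr1, a stress-induced chromatin protein, rose from 0.725 ± 0.246 to 17.8 ± 4.28 CPM (4.61 ± 0.27). The death receptor gene Tnfrsf10b rose by 3.54 ± 0.46, the mitochondrial gluconeogenic enzyme gene Pck2 by 2.73 ± 0.23 and the hormone gene Fgf21 by 1.41 ± 0.37 (2.03 without normal diet replicate 3). Herpud1, which acts in degradation of endoplasmic reticulum proteins, fell from 983 ± 78.8 to 374 ± 57.9 CPM (-1.39 ± 0.13). Gpt2, an alanine aminotransferase gene, was at -0.20 ± 0.12 (adjusted p = 0.18). Scaled by total counts it was 0.13, in TPM 0.17 and by hepatocyte markers 0.46, the last called. Adm2, at 0 on normal diet, was not tested.

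Cytosolic tRNA synthetases, several of which ATF4 induces in cultured cells, did not move one way: 3 of 20 rose and 6 fell (median -0.19; 5 and 2 with total counts, 14 and 0 with hepatocyte markers). Vars rose by 0.79 ± 0.14 and Gars by 0.66 ± 0.12. Tars fell by 0.95 ± 0.10, Dars by 0.66 ± 0.10 and Eprs by 0.38 ± 0.11, calls lost with hepatocyte markers, where Eprs turned to 0.28. Dars was not called with TPM, and Eprs with neither TPM nor total counts. Aars, the list's highest in CPM though not in TPM, was at -0.25 ± 0.11 (adjusted p = 0.0888), was called lower without CDAHFD replicate 3 (-0.36, adjusted p = 0.0434) and had the opposite sign under total counts (0.08), TPM (0.12) and hepatocyte markers (0.41, called).

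Mitochondrial chaperones and proteases fell in 7 of 8 cases and rose in none (median -0.46; 1 higher and 1 lower with total counts, 2 and 0 with hepatocyte markers). The chaperonin gene Hspd1 fell by 0.81 ± 0.14, the mitochondrial HSP70 gene Hspa9 by 0.54 ± 0.12, Hspe1 by 0.51 ± 0.10 and the inner membrane protease gene Yme1l1 by 0.49 ± 0.13. With hepatocyte markers none of these 4 was called, and Hspa9, Hspe1 and Yme1l1 turned to 0.12, 0.14 and 0.16. These 3 were not called with total counts or TPM either.

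Among 9 tested paralogs of the target genes, 4 rose and 1 fell (median 0.50; 6 and 0 with total counts, 8 and 0 with hepatocyte markers). Slc7a6, Slc7a8 and Slc7a7, relatives of Slc7a11 that carry other amino acids, rose by 3.20 ± 0.35, 2.18 ± 0.14 and 1.47 ± 0.15, and Ddit4l by 3.05 ± 0.43. Trib1 and Sesn3 were not called, at -0.08 ± 0.15 (adjusted p = 0.676) and 0.01 ± 0.13 (adjusted p = 0.97). Trib1 turned to 0.24 with total counts, 0.31 with log2(TPM + 0.1) and 0.58 with hepatocyte markers, the last called. Sesn3 was called with hepatocyte markers too, at 0.66.

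Of 10 tested genes of glutathione synthesis and breakdown, to which Slc7a11 supplies cystine and Chac1 adds cleavage, 4 rose and 2 fell (median 0.10; 5 and 0 with total counts, 8 and 0 with hepatocyte markers). Gclc, which encodes the catalytic subunit of the limiting step, was at 240 ± 62.9 and 236 ± 30.0 CPM (-0.02 ± 0.17, adjusted p = 0.934). It turned to 0.30, 0.37 and 0.64 with total counts, TPM and hepatocyte markers, the last called. The gamma-glutamyl enzyme genes Ggt5, Ggct and Ggt6 rose by 1.35 ± 0.21, 0.67 ± 0.22 and 0.44 ± 0.16, and the peptidase gene Lap3 fell by 0.59 ± 0.12. Without 1 library the call of Ggct was lost in 3 cases (adjusted p = 0.0605 to 0.109) and that of Ggt6 in 4 cases (adjusted p = 0.0957 to 0.146). The call of Lap3 was lost with total counts, TPM and hepatocyte markers, where it turned to 0.07.

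**Figure D5:**
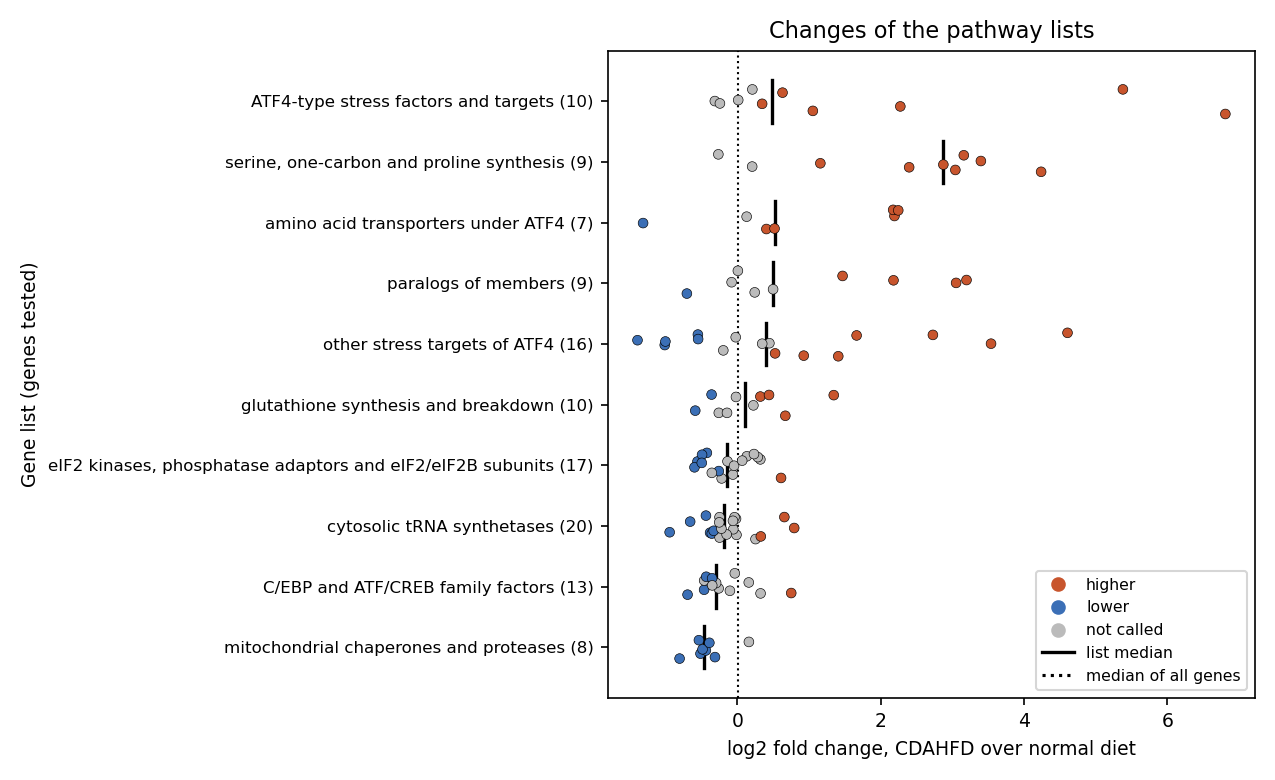
Log2 fold changes with TMM of all tested genes of the 10 stress genes and of the 9 other lists, 1 point per gene, coloured by call, with a bar at each list's median and a dotted line at the median of all genes (0.01). The serine, one-carbon and proline list has a median of 2.88, and the mitochondrial chaperone list one of -0.46.

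In bulk liver, a change in the share of a cell type and a change in RNA per cell cannot be told apart. The markers of other cell types moved with the diet. Of 13 macrophage and Kupffer cell markers 11 rose and 0 fell. Clec4f and Timd4 were not called, at -0.29 ± 0.19 (adjusted p = 0.218) and -0.56 ± 0.30 (adjusted p = 0.136). The summed level of the 13 went from 357 to 461 CPM on normal diet to 1867 to 2001 CPM on CDAHFD. Lyz2 and Gpnmb alone averaged 524 and 516 CPM on CDAHFD. None of the 13 was at 0 on normal diet, but Itgam, Gpnmb and Trem2 had 0.164, 0.33 and 0.444 CPM there. All 8 stellate cell markers rose, from 131 to 160 CPM to 775 to 1087 CPM in sum. T and NK cell markers rose in 4 of 5 cases (1.52 to 2.10 and 7.61 to 14.0 CPM in sum) and cholangiocyte markers in 4 of 4 (4.56 to 8.70 and 18.8 to 28.3 CPM). B cell markers rose in 3 of 5 cases (7.55 to 8.25 and 14.1 to 23.6 CPM), and neutrophil markers in 2 of 2 tested (0.589 to 0.637 and 5.31 to 11.03 CPM, with Mpo at 0 on normal diet). Endothelial markers rose in 1 of 6 cases (282 to 312 and 300 to 338 CPM), and in 4 with total counts or TPM and 6 with hepatocyte markers as the scale. Of 9 hepatocyte markers 8 fell, and their sum went from 127993 to 149872 CPM to 90653 to 102979 CPM. The number lower was 5 with total counts, 2 with log2(TPM + 0.1) and 1 when scaled by these markers themselves. Of 4 pancreatic acinar markers 3 had 0 counts on normal diet, and the one tested, Cela1, fell (22.5 to 28.4 and 10.9 to 14.2 CPM in sum). The part of these cell types in the rises of Atf3, Slc7a11 and the other genes was not tested.

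The profiles over the 6 libraries most like those of the 4 factors were looked up among 11841 other named genes with a mean of at least 1 CPM, by the Pearson correlation of log2 CPM. With 2 diets that differ in so many genes, such correlations are high for many genes and are given as a description. For Atf3 the nearest were Cx3cr1, Fut11 and Tspan13, each with r = 1.00 at 2 decimals, and 1570 genes had r over 0.95. Cx3cr1 rose by 4.66 ± 0.23, Fut11 by 0.76 ± 0.15 and Tspan13 by 2.56 ± 0.23. For Atf5 the nearest were H13, Wfdc3 and Crym, with 709 genes over 0.95. H13, which encodes signal peptide peptidase, rose by 0.37 ± 0.10, a call lost without normal diet replicate 1 or CDAHFD replicate 1 or 3 (adjusted p = 0.0514 to 0.0771). Wfdc3 rose by 4.33 ± 0.68 (3.91 without normal diet replicate 2, 5.28 without replicate 3). For Atf4 they were Ndufa12, Angptl4 and Fmc1 (r = 0.99, 0.99 and 0.98), with 39 genes over 0.95. Ndufa12, a gene of respiratory complex I, was called lower (-0.34 ± 0.13, adjusted p = 0.0467). That call was lost with total counts, TPM, hepatocyte markers, limma-voom (adjusted p = 0.0533) and a filter of 1 CPM in 3 libraries (adjusted p = 0.0628), and without normal diet replicate 1 or 3 or CDAHFD replicate 2 or 3 (adjusted p = 0.0866 to 0.155). For Ddit3 they were Stx8, Pgm5 and Zkscan6 (r = 0.99, 0.96 and 0.96), and 4 genes exceeded 0.95. Among the 10 genes, r over the 6 libraries was 1.00 for Atf3 and Slc7a11 and -0.77 for Atf4 and Atf3. After removing the diet means, the correlations of Atf4 with the other genes ran from -0.67 for Slc7a11 to 0.72 for Ddit4. With 6 libraries such values are loosely known, and Slc7a11 had only 0 to 1 counts per normal diet library.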

How the data were processed

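The 6 liver libraries (3 normal diet, 3 CDAHFD, grouped by sample title) were made from TRIzol RNA with a stranded, ligation-based mRNA kit, per the labels' protocols. The authors deposited raw read counts and TPM per Ensembl gene. STAR 2.7.11a and build GRCm39 are named in the submitters' processing notes. Not given in the sources used here: counting tool, annotation and strand setting. Totals were 21986215 to 25628531 counts per library. Symbols came from a reference table of gene names (51911 of 56847 IDs matched), and overlaps between genes from a GENCODE annotation of GRCm38.

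Genes passing filterByExpr (minimum count 10; 14215) were scaled by TMM and fitted with edgeR 4.0.16 (R 4.3.3), quasi-likelihood test, diet as the only term, Benjamini-Hochberg adjustment over all genes tested. The standard error is the change divided by the root of F. DESeq2 1.42.0 and limma 3.58.1 served as alternatives. Hepatocyte scaling used the geometric mean of the counts of 9 marker genes, of 10 listed. Within a diet, libraries differed by a chi-square per degree of freedom of 17.5 to 39.7, so no library looked like a copy of another. On simulated data for this comparison (14215 genes drawn), the test found 93 of 100 genes with a 2-fold change and 49 of 100 with a 1.5-fold change, and 5 of its 147 calls were false. Only these genes were changed there, in random directions and among genes above a count minimum. In the data 52.1% of genes were called, so the simulation does not cover so broad a change or a shift of the scaling.

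The 10 genes and all lists were chosen with earlier results of these data known. From each list up to 4 called genes are named, those that changed most among genes averaging 1 CPM or more, plus the 2 with the highest mean CPM. For Atf4, Atf3, Atf5 and Ddit3 the 3 genes with the highest correlation are named. Itgam, Gpnmb, Trem2, Clec4f, Timd4, Lyz2, Mpo, Slc7a3, Adm2, Nup62, Il4i1 and Mars, as well as Cela1, were chosen after their values were seen. Alternatives were RLE, total-count and hepatocyte scaling, TMM without the 20 most abundant genes, other filters, DESeq2, limma on deposited TPM (pseudocounts 1 and 0.1), voom weights, the replicate number as a block, and leaving out each library. With 2 libraries left in a diet, edgeR pools the spread over both diets. Marker lists covered hepatocytes, macrophages, stellate cells, endothelium, cholangiocytes, T and NK cells, B cells, neutrophils and pancreatic acini. All per-sample columns were used.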

Additional observations from a re-analysis of the deposited data

How the results depend on the processing

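With total counts, hepatocyte markers, log2(TPM + 1) and log2(TPM + 0.1), 6258, 9463, 6449 and 6433 genes were called higher and 1147, 412, 897 and 897 lower, against 4057 and 3347 with TMM. Of the pathway list genes 49, 76, 50 and 50 were then higher and 8, 2, 6 and 6 lower, against 32 and 32. Of the 10 stress genes, 1 (Atf4) was called lower with RLE scaling, with DESeq2, without a filter on low counts and with the replicate block, against 0. Leaving out 1 library gave 3530 to 4104 genes higher and 2871 to 3416 lower, 4 to 6 of the 10 stress genes higher and 0 to 1 lower, and 24 to 32 pathway genes higher and 27 to 33 lower. The cause of these shifts was not tested.

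The changes of several genes turned sign. In the order total counts, hepatocyte markers, log2(TPM + 1) and log2(TPM + 0.1), Atf4 stood at 0.010, 0.34, 0.057 and 0.058, Chac1 at 0.075, 0.40, 0.044 and 0.042, and Nfe2l1 at 0.29, 0.62, 0.33 and 0.33. In the same order, Gpt2 stood at 0.13, 0.46, 0.17 and 0.17, Shmt2 at 0.056, 0.38, 0.096 and 0.096, and Aars at 0.076, 0.41, 0.11 and 0.12. Trib1 stood at 0.24, 0.58, 0.30 and 0.31, Gclc at 0.30, 0.64, 0.37 and 0.37, Angptl4 at 0.082, 0.41, 0.12 and 0.12, and Fmc1 at 0.0058, 0.34, 0.056 and 0.057. With hepatocyte markers alone, Ppp1r15b turned to 0.058, Eif2b1 to 0.10, Dnajc3 to 0.16, Cebpa to 0.19, Atf1 to 0.21 and Eprs to 0.28. Hspa9 then stood at 0.12, Hspe1 at 0.14, Yme1l1 at 0.16, Lap3 at 0.070 and Ndufa12 at 0.31 (0.032 and 0.033 with the TPM pseudocounts of 1 and 0.1). With RLE scaling and DESeq2, Ddit4 stood at -0.0083 and -0.0069 and Sesn3 at -0.011 and -0.011. Gclc stood at 0.0029 with a filter of 1 CPM in 3 libraries, 0.0042 with limma-voom and 0.0056 with the replicate block. Leaving out each library in turn also turned signs, with ranges of Ddit4 -0.35 to 0.44, Sesn3 -0.11 to 0.12, Gclc -0.17 to 0.20, Trib1 -0.26 to 0.019, Stx8 -0.0042 to 0.12, Pgm5 -0.12 to 0.39 and Zkscan6 -0.0078 to 0.30.

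The labels state no pairing of the libraries by replicate number. Deviations of same-numbered libraries correlated at -0.05, 0.07 and 0.12, and those of differently numbered libraries at -0.14 to 0.09. So few values cannot decide whether the numbers pair the libraries. The replicate block gave 4046 genes higher and 3311 lower, 6 of the 10 stress genes higher, and 33 pathway genes higher and 33 lower. Under that block the adjusted p of Atf4 was 0.0498. Counts of 0 to 1 per library in Slc7a11 on normal diet limit how closely its ratio is known.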
